A study of Homo sapiens with 3 samples.

Results

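Oxidative phosphorylation is carried out by 5 protein complexes of the inner mitochondrial membrane, and the genes described here encode their subunits. Members were taken by name from the array's gene symbols: the NDUFA, NDUFB, NDUFC, NDUFS and NDUFV families of complex I, SDHA to SDHD of complex II, the UQCR family and CYC1 of complex III, the COX4 to COX8 families of complex IV and the ATP5 family of complex V. The rule found 97 of the 43314 gene names on the array, after 2 pseudogene names were dropped. Of these, 84 were nuclear genes for subunits (37 in complex I, 4 in complex II, 9 in complex III, 18 in complex IV and 16 in complex V), 7 were assembly factors of complex I (NDUFAF1 to NDUFAF7), 3 were antisense transcripts, and 3 (COX7A2L, ATP5S and ATP5SL) were kept apart because they are not subunits of a single complex. NDUFA4 and NDUFA4L2 were placed in complex IV, where NDUFA4 resides, despite their names. Symbols are those of the array design, so that ATP5G2, for example, is now called ATP5MC2.

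RNA came from THP-1, a line grown from a human monocytic leukemia, and was read on 3 one-colour Agilent arrays that shared 1 slide. All cells had been differentiated to macrophages with 100 ng/mL of phorbol 12-myristate 13-acetate (PMA), and the labels give 4 h for each sample. The methods of the study describe a longer exposure to IMQ for THP-1 cells in general and do not describe the profiling. The discussion of the study calls it RNA sequencing where the files are arrays. The time of these samples is thus not certain. The Ctrl cells received no further agent by their label. The IMQ cells received imiquimod, a ligand of the endosomal Toll-like receptor TLR7, and the IMQ+X cells received IMQ and an agent X. The labels do not spell out X, but their treatment protocol names a single other agent, DMD, a small phenolic compound given before IMQ. Doses of IMQ and X are not in the labels. There was 1 array per condition, so that no difference below has a replicate check and no p-value was computed. In bulk RNA, fewer cells with a transcript and less of it per cell cannot be told apart. All 8 myeloid markers found on the array (among them CD14, SPI1 and TYROBP) were well above background in every condition, with log2 intensities between 13.13 and 17.81, whereas the markers of T, B and NK cells, keratinocytes and fibroblasts lay between 4.04 and 12.04. Some markers moved with the treatment: CD14 was at 14.44 in Ctrl, 13.71 in IMQ and 13.21 in IMQ+X, CD33 was lower in both treated samples, at 13.16 and 13.13, and the NK marker NCAM1 was at 5.14, 8.21 and 7.56, while KLRD1, the other NK marker, was above background on no array. Their part in the results was not tested.

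Complexes I and II pass electrons from NADH and succinate to ubiquinone, complex III passes them on to cytochrome c, and complex IV hands them to oxygen. Complexes I, III and IV pump protons as they do so, and complex V, the ATP synthase, lets the protons back and makes ATP. Most subunits are encoded in the nucleus and imported, while a small core of complexes I, III, IV and V is encoded by mitochondrial DNA. Activation of macrophages through Toll-like receptors is known for a move of energy metabolism from respiration towards glycolysis.

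Levels are log2 values of quantile-normalized intensity, and differences are in the same log2 units. As a measure of noise, the SD between repeated spots of a probe on 1 array, taken at the brightness of each gene, was carried over to the difference between arrays. It had a median of 0.061 log2 units over the subunits and covers neither culture nor array. The subunits were bright, with a median over their mean levels of 14.53, and 76 of 84 had a mean level above 12. Probes for 81 of the 84 were well above background on all arrays. COX7A1, a muscle isoform, and COX7B2, a testis isoform, were above background on none and were not compared, and COX8C, another testis isoform, was not well above background on the Ctrl array.

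With quantile scaling, the nuclear subunits moved little after IMQ. Of 82 compared, 1 was at least 1.5-fold higher than in Ctrl and 0 were at least 1.5-fold lower, where 10.7% and 10.7% of all 31870 genes compared were, and 8.67% and 7.34% of the 3623 genes with a mean level of 12 to 18. These counts hold for the quantile scaling: without scaling 0 subunits were higher and 11 lower, and with spike-in scaling 0 were higher and 20 lower. The median of all genes itself was then at -0.51 and -0.60. Since the shares above are for quantile scaling, the 11 and 20 do not set the subunits apart from all genes. At a difference of 0.32 log2 units or more, 2 subunits were higher and 5 lower, against 20.9% and 22.7% of all genes, and 0 subunits reached 2-fold in either direction. The median difference was -0.07 (quartiles -0.16 and 0.04), beside -0.02 over all genes (-0.29 and 0.26) and -0.04 over those bright genes (-0.24 and 0.20). With each array divided by its 75th percentile in place of quantile normalization, the median of the subunits was 0.10, so that the sign of this small shift depends on the scaling. Lower values by any amount were seen for 56 of 82 subunits, against 52.1% of all genes.

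Adding X moved few subunits from their level under IMQ. In IMQ+X against IMQ, 0 subunits were 1.5-fold higher and 0 lower, against 6.75% and 5.43% of 31706 genes, but only 0.248% and 0.552% of the 3623 genes with a mean level of 12 to 18, so that the count does not set the subunits apart from genes of like brightness. By 0.32 log2 units or more, 1 was higher and 2 were lower (16.4% and 14% of all genes, 1.24% and 2.4% of the bright ones), and 36 of 82 were lower by any amount (48.5%). The median difference was 0.01, beside 0.01 over all genes. In IMQ+X against Ctrl, which shares an array with each of the other comparisons, the count past 1.5-fold was 0 in both directions, against 9.9% higher and 11.4% lower among 33710 genes (8.78% and 8.86% of the bright ones). Without scaling 22 subunits were lower, and with spike-in scaling 15. The shares just given are for quantile scaling, and the median of all genes went as low as -0.32 over the settings tried. The 22 and 15 thus do not set the subunits apart from all genes. By 0.32 log2 units or more, 2 were higher and 7 lower (23.9% and 20.7%), and 55 of 82 were lower by any amount (44.9%). The median was -0.06, beside 0.05 over all genes.

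**Figure D1:**
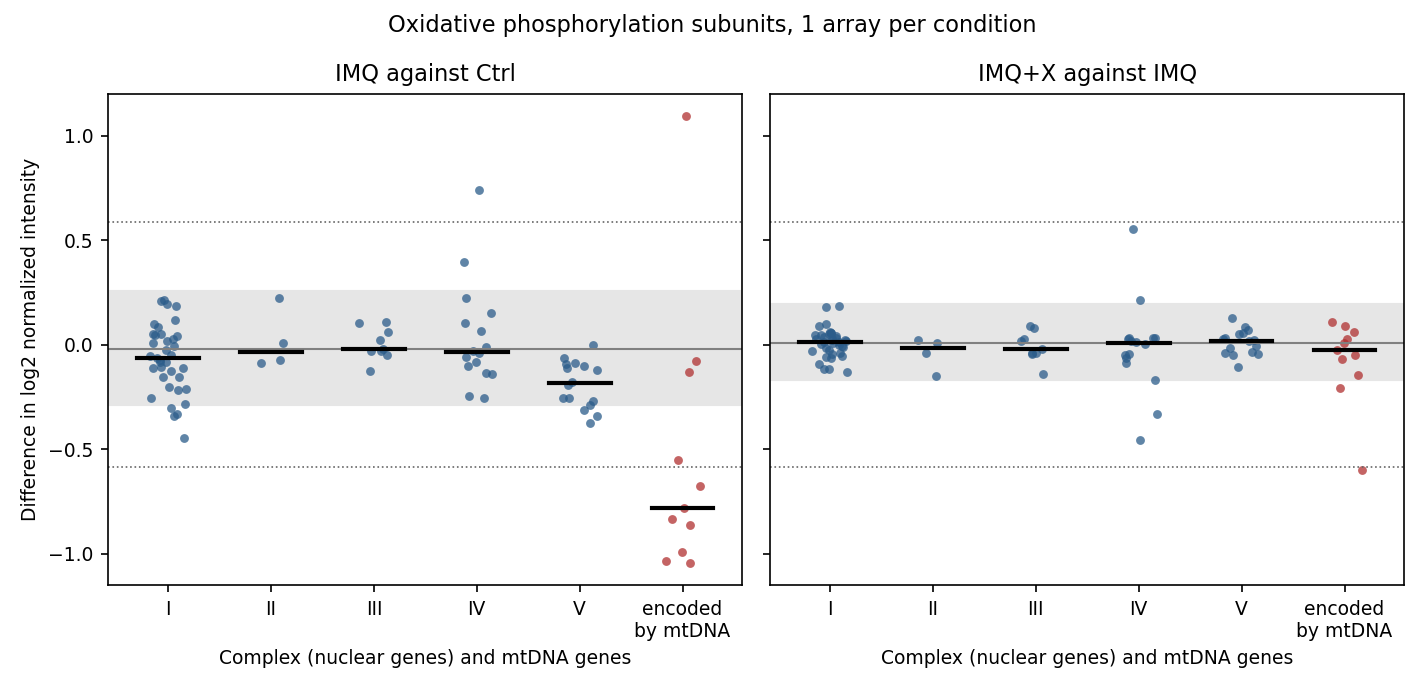
Differences in log2 normalized intensity for each subunit (points), by complex, in IMQ against Ctrl (left) and IMQ+X against IMQ (right), from 1 array per condition. Black bars are medians, the grey line and band are the median and the middle quartiles of all genes, and dotted lines mark 1.5-fold; the nuclear subunits (blue) lie mostly inside the band, while the median of the subunits encoded by mitochondrial DNA (red) is at -0.78 after IMQ.

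The ATP synthase stood lowest of the complexes after IMQ. With quantile scaling, its 16 genes had a median difference of -0.19 from Ctrl. All 16 were below 0, though ATP5L only at -0.0002, against 52.1% of all genes and 54.3% of those with a mean level of 12 to 18. Over the 12 settings tried, 9 to 16 were below 0. The medians were -0.06 for complex I (23 of 37 lower) and -0.03 for complex II (2 of 4). They were -0.02 for complex III (5 of 9) and -0.03 for complex IV (10 of 16). Of the 16 differences of complex V, 10 were beyond 2 SD of repeated spots, all of them lower. The same count was not made over all genes. Their quartiles of -0.29 and 0.26 are wide beside this SD, so that the count does not set the complex apart. In IMQ+X against Ctrl the median of complex V was -0.15, again with all 16 below 0, against 44.9% of all genes. Over the 12 settings, 15 to 16 were below 0 there. In IMQ+X against IMQ the median was 0.02, with 9 higher and 7 lower, where 48.5% of all genes were lower. That last count turned with the scaling: all 16 were lower with the 75th percentile (median -0.13) and without scaling (median -0.105), and 4 with spike-in scaling (median 0.04). Differences of this size were all under 1.5-fold.

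ATP5G2, a gene for the proton-carrying c subunit of the membrane ring, showed the largest difference of the complex in IMQ against Ctrl. Its level was 16.21 in Ctrl, 15.83 in IMQ and 15.86 in IMQ+X, a difference of -0.38 with an SD of repeated spots of 0.06. The same c subunit is encoded by ATP5G1 and ATP5G3, which differ from ATP5G2 in their import peptides. ATP5G1 had levels of 13.47, 13.18 and 13.24 in Ctrl, IMQ and IMQ+X. ATP5G3 had levels of 16.83, 16.58 and 16.54. With quantile scaling, all genes of the c subunit were thus lower in both treated samples by more than 2 SD of repeated spots. Over the settings tried for single genes, ATP5G2 differed by -0.68 to -0.14 in IMQ against Ctrl. No such range is given for ATP5G1 and ATP5G3, and the share of all genes beyond 2 SD was not computed.

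In the catalytic head, ATP5A1 (subunit alpha) had levels of 15.12, 14.85 and 14.84 in Ctrl, IMQ and IMQ+X. ATP5B (the catalytic subunit beta) had levels of 14.35, 14.24 and 14.27, and ATP5C1 (subunit gamma of the rotating stalk) 11.76, 11.63 and 11.72. With quantile scaling, alpha was lower in both treated samples beyond 2 SD of repeated spots, while the differences of beta and gamma were within it. ATP5D (subunit delta of the central stalk) had levels of 13.24, 12.92 and 12.91, and ATP5F1 (subunit b of the outer stalk) 14.98, 14.63 and 14.59, the lowest of the complex in IMQ+X against Ctrl at -0.39. ATP5J (coupling factor 6 of the outer stalk) was at 15.25, 15.06 and 15.19, and its difference between IMQ+X and IMQ, 0.13, was the highest of the complex. At the other end, ATP5L (subunit g of the membrane part) was at 16.98, 16.98 and 16.88, with the lowest value of the complex in IMQ+X against IMQ, -0.10.

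ATP5L2 is a copy of ATP5L, and 35 of the 41 bases that their probes of 60 bases share in position were identical, so that its levels of 14.98, 14.89 and 14.84 may hold signal of ATP5L. Without it, complex V had a median of -0.19 in IMQ against Ctrl and -0.16 in IMQ+X against Ctrl. ATP5J2 (subunit f) and ATP5E (subunit epsilon) had a second probe each that was well above background, and these gave differences of -0.23 and -0.20 in IMQ against Ctrl beside -0.26 and -0.10 from the probes used.

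**Figure D2:**
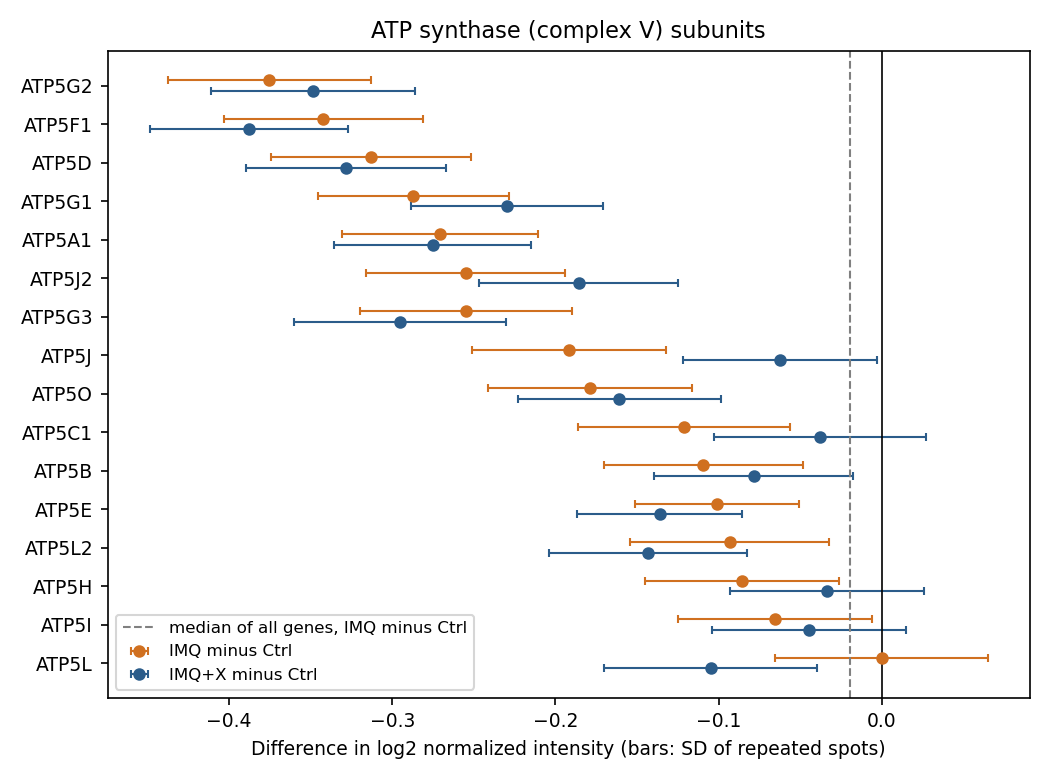
Difference in log2 normalized intensity from Ctrl for each ATP synthase gene in IMQ (orange) and IMQ+X (blue), with bars of 1 SD of repeated spots; there was 1 array per condition. With quantile scaling, all points lie at or below 0, from -0.38 for ATP5G2 upwards in IMQ, and those of IMQ and IMQ+X lie close together for most genes.

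In IMQ against Ctrl, how low complex V stood against all genes depended on the scaling between arrays, and how low it stood against the other complexes did not. Its median minus that of complexes I to IV was -0.15 in IMQ against Ctrl as processed here, and lay between -0.16 and -0.13 in all 12 settings tried. In IMQ+X against Ctrl it was -0.12, with a wider range of -0.19 to -0.11. In IMQ against Ctrl, the median of complex V minus that of all genes was -0.17. It was 0.05 when each array was divided by its 75th percentile, 0.04 without any scaling and 0.04 with spike-in scaling. With the 75th percentile, 9 of the 16 genes were below 0 in that comparison. Set beside the genes with mean levels of 12 to 18 only, it was -0.15 as processed here and -0.14 under each of those scalings. In IMQ+X against Ctrl, the gap to all genes lay between -0.24 and -0.16 in all 12 settings. Before normalization, the 75th percentile of the intensity over the spots was 621.9 for Ctrl, 455.2 for IMQ and 463.3 for IMQ+X, and the part of this gap in the differences was not tested.

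**Figure D3:**
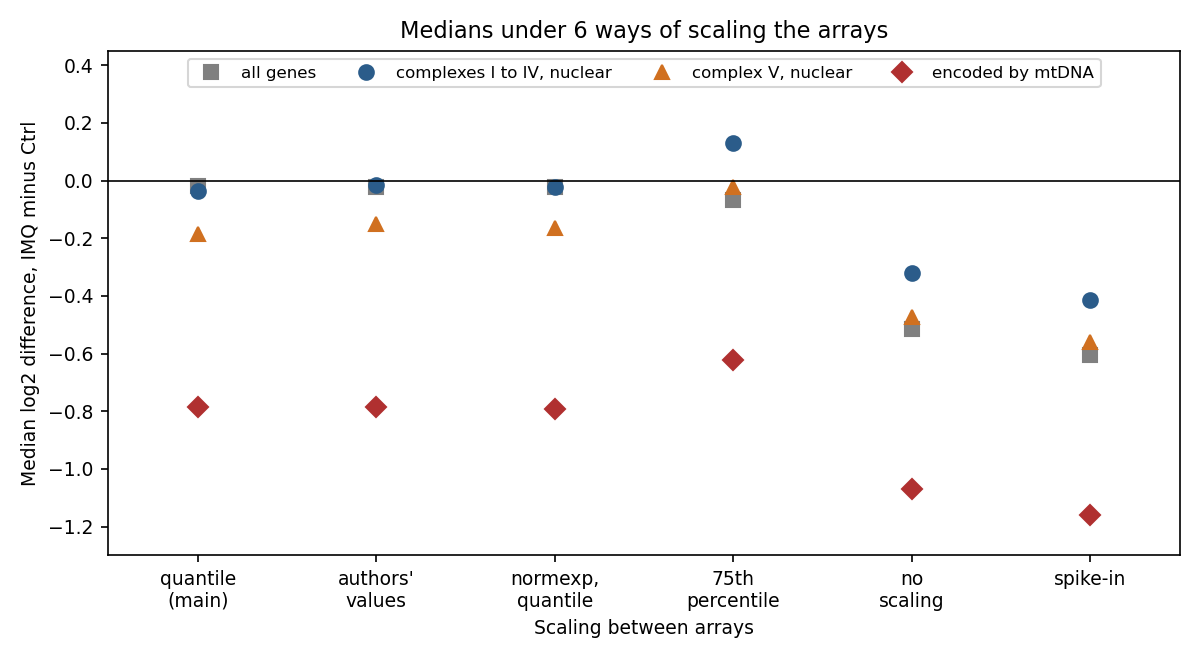
Median log2 difference between IMQ and Ctrl (vertical axis) under 6 ways of scaling the arrays (horizontal axis), for all genes, the nuclear subunits of complexes I to IV, those of complex V, and the subunits encoded by mitochondrial DNA. The whole set moves with the scaling (complex V from -0.56 to -0.02), but in each case complex V is below complexes I to IV and the subunits encoded by mitochondrial DNA are below both.

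The promoters of 2 ATP synthase genes are shown because the complex lay lower as a group and because nuclear respiratory factor 1 (NRF1) is a known regulator of such genes. Among the ATP synthase promoters with a match, these belong to the genes with the largest (ATP5G2) and the smallest (ATP5I, subunit e) difference after IMQ. Each is the 250 bases before the start of the gene in RefSeq (GRCh38.p14), read 5′ to 3′ on the gene's strand, and capitals mark the matches to GCGCANGCG on either strand. ATP5G2 is at chr12:53676084-53676333 and ATP5I at chr4:674277-674526, both on the minus strand.
ATP5G2: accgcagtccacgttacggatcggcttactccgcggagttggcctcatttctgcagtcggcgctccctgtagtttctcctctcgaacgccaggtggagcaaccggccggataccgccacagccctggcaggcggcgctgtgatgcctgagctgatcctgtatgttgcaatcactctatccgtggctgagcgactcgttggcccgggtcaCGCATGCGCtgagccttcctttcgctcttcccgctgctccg
ATP5I: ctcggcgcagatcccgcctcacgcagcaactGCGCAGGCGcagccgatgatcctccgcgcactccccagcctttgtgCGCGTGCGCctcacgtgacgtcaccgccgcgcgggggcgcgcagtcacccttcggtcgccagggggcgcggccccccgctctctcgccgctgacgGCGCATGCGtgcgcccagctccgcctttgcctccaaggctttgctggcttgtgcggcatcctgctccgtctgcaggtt
There was 1 match before ATP5G2 and there were 3 before ATP5I, whose levels of 15.26, 15.19 and 15.21 in Ctrl, IMQ and IMQ+X differed by less than 2 SD of repeated spots.

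Over 300 bases (250 before to 50 after the start), promoters could be matched for 68 of the 84 subunits. The NRF1 motif GCGCANGCG was in 22 of them (32.4%), against 8.05% of all 27305 promoters. CCGGAAG, the core of the motif of GA-binding protein (GABP), was in 19 (27.9%), against 10.7%, and AANATGGC, the motif of YY1, was in 22 (32.4%), against 6.82%. Both strands were searched, and in 0 of the 68 promoters did matches of different motifs overlap. By complex, the NRF1 motif was in 9 of 32 promoters of complex I, 2 of 3 of complex II, 4 of 7 of complex III, 2 of 15 of complex IV and 5 of 11 of complex V. A match is a run of letters and was not tested as a binding site.

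Complex I, which takes electrons from NADH, had differences in IMQ against Ctrl from -0.45 to 0.21. NDUFS8, an iron-sulfur subunit on the way to ubiquinone, had levels of 14.75 in Ctrl, 14.30 in IMQ and 14.28 in IMQ+X, a 1.36-fold lower value after IMQ. It was lower than in Ctrl under each of the 11 settings tried for single genes, with differences of -0.81 to -0.27. NDUFS7, which carries the last iron-sulfur cluster before ubiquinone, was at 13.00, 12.66 and 12.66. Both were lower in IMQ and in IMQ+X by more than 2 SD of repeated spots with quantile scaling.

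The other core subunits described here did not share a direction. NDUFS1, the largest iron-sulfur subunit, had levels of 13.18, 13.38 and 13.39 in Ctrl, IMQ and IMQ+X, and by these was higher in both treated samples. NDUFV1, which binds NADH and flavin, was at 14.82, 14.75 and 14.63. NDUFV2, its iron-sulfur partner, was at 14.28, 14.31 and 14.36 by the probe used, within 2 SD of repeated spots in all comparisons. Its second probe, at 11.61, 11.88 and 11.92, was higher than in Ctrl by 0.27 in IMQ and 0.31 in IMQ+X. Of the accessory subunits, NDUFA8 had the highest difference in IMQ against Ctrl, with levels of 14.73, 14.94 and 14.92, and NDUFB10 had the highest in IMQ+X against IMQ, 0.19, with 14.38, 14.05 and 14.23. In all, 12 of 37 genes of complex I were lower and 4 higher in IMQ than in Ctrl beyond 2 SD of repeated spots. The share of all genes beyond this mark was not computed, so that the count does not set complex I apart.

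Complex II oxidizes succinate and is the one complex with no subunit from mitochondrial DNA. SDHB, its iron-sulfur subunit, had levels of 12.51 in Ctrl, 12.73 in IMQ and 12.74 in IMQ+X. SDHA, the flavin subunit, was at 13.53, 13.46 and 13.42. SDHC, a membrane anchor, was at 13.92, 13.84 and 13.69, with the lowest value of the complex in both IMQ against Ctrl and IMQ+X against IMQ. SDHD, the other anchor, was at 12.14, 12.14 and 12.17. By the probes used, only SDHB differed between IMQ and Ctrl by more than 2 SD of repeated spots. The other probes of SDHA gave -0.04, -0.38 and -0.20 in IMQ against Ctrl, beside -0.07 from the brightest. The probes of SDHC disagreed: its other 3 probes gave 0.30, -0.06 and 0.22 in IMQ against Ctrl, beside -0.09 from the brightest.

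In complex III no gene was beyond 2 SD of repeated spots in either treated sample against Ctrl. UQCR11, a small accessory subunit, had the highest difference in IMQ against Ctrl, with levels of 16.75, 16.86 and 16.72 in Ctrl, IMQ and IMQ+X, and UQCRQ, which helps to bind ubiquinone, the lowest, with 16.64, 16.52 and 16.61. The Rieske iron-sulfur protein UQCRFS1 was at 14.68, 14.78 and 14.74. Cytochrome c1, encoded by CYC1, was at 13.72, 13.74 and 13.82. The core protein UQCRC1 was at 13.91, 13.89 and 13.91. UQCRC2, the other core protein, was read by 10 spots per array, which gave 13.54, 13.60 and 13.56 and differences of 0.06 in IMQ against Ctrl and -0.04 in IMQ+X against IMQ, each with a standard error over spots of 0.02.

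In complex IV the ubiquitous isoforms differed little between conditions. COX4I1, the isoform of subunit 4 found in most tissues, had levels of 15.11, 15.03 and 15.06 in Ctrl, IMQ and IMQ+X. COX5A, which binds thyroid hormone, was at 15.63, 15.37 and 15.33, and COX5B, a zinc-binding subunit, at 15.72, 15.48 and 15.42. These latter 2 had the lowest values of the complex in IMQ against Ctrl, -0.26 and -0.24, beyond 2 SD of repeated spots, and the second probe of COX5A gave -0.27. COX7A2, the isoform of subunit 7A found in most tissues, had the highest difference among the genes of the complex with levels above 12, with 16.87, 17.09 and 17.04. COX7C, read by 10 spots per array, was at 16.00, 15.87 and 15.87, with a difference of -0.13 in IMQ against Ctrl and a standard error over spots of 0.01.

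The tissue-restricted isoforms carried the widest differences of complex IV, and most were dim. COX8C, the single subunit past 1.5-fold, had a level of 4.80 in IMQ and 4.47 in IMQ+X, and in Ctrl it was not well above background, at 4.06. Its value was 1.67-fold higher in IMQ than in Ctrl, a difference of 0.74, but the SD of repeated spots at this brightness was 0.67. The deposited intensities behind it were 20.4, 21.31 and 22.66. The difference was 0.513 with the 75th percentile, 0.063 without scaling and 0.105 with normexp. COX8A, its ubiquitous counterpart, was at 16.56, 16.55 and 16.58. COX6A2, the heart and muscle isoform, was at 7.45, 7.34 and 7.90, a difference of 0.56 in IMQ+X against IMQ with an SD of repeated spots of 0.13, and the ubiquitous COX6A1 was at 16.42, 16.57 and 16.59.

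COX4I2, the lung isoform of subunit 4, was at 5.58, 5.97 and 5.80, with a difference after IMQ of 0.39 and an SD of repeated spots of 0.30. Before scaling its intensities were 58.49, 49.63 and 55.54, so that the sign of this difference depends on the scaling. NDUFA4L2, a hypoxia-responsive relative of NDUFA4, was at 5.32, 5.26 and 4.80, a difference of -0.45 in IMQ+X against IMQ with an SD of 0.52. That difference was -0.089 with the 75th percentile, -0.064 without scaling, 0.084 with spike-in scaling and -0.124 with normexp. NDUFA4 itself was at 16.29, 16.15 and 16.07. COX6B2, the testis isoform, was at 12.79, 12.76 and 12.97, and its second probe at 9.47, 9.0 and 9.67, while COX6B1 was at 15.41, 15.37 and 15.40. Both probes of COX6B2 were higher in IMQ+X than in IMQ, by 0.22 and 0.67. By the probes used, the difference of the restricted isoform in IMQ against Ctrl was above that of its ubiquitous counterpart in 4 of 5 pairs. It was below it for COX6A2. In the pairs of COX6B2 and NDUFA4L2 the gap was smaller than the SD of repeated spots, and COX8C was not well above background in Ctrl. The second probe of COX6B2, at -0.47 in IMQ against Ctrl, lay below COX6B1, at -0.04.

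Among subunits with several probes well above background on all arrays, 19 genes had 26 further probes. In IMQ against Ctrl, 19 of the 26 had the sign of the probe used, with a median gap of 0.12, and 0 of them were past 1.5-fold. Between IMQ+X and IMQ, 16 of 26 had the same sign, and 2 were past 1.5-fold: the second probe of COX6B2, and a dim probe of NDUFA10, an accessory subunit of complex I, with 8.52 in Ctrl, 8.11 in IMQ and 8.93 in IMQ+X where the probe used had 12.53, 12.61 and 12.65.

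The assembly factors of complex I had wider differences in IMQ against Ctrl, -0.56 to 0.66, than its subunits. NDUFAF7, a methyltransferase needed for assembly, had levels of 10.19 in Ctrl, 10.84 in IMQ and 10.90 in IMQ+X, and was 1.58-fold and 1.64-fold higher than in Ctrl. It was higher than in Ctrl in all 11 settings, by 0.15 to 0.69 for IMQ. NDUFAF1, which helps to build the membrane arm, was at 11.72, 12.17 and 12.18. Its difference from Ctrl depended on the scaling, at 0.02 to 0.56 in IMQ and -0.02 to 0.47 in IMQ+X over the 11 settings. NDUFAF6 was lower, at 10.73, 10.17 and 10.20, 1.48-fold in IMQ, and its second probe was at 7.66, 6.96 and 6.42. The other 4 factors differed from Ctrl by less than 0.32 log2 units in either treated sample. The antisense transcript NDUFB2-AS1 was at 9.91, 9.76 and 10.19 by one probe and 7.92, 7.31 and 7.01 by the other, so that its probes disagreed in IMQ+X against IMQ.

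Assembly factors outside the naming rule numbered 39, and 1 of them was 1.5-fold higher and 2 were 1.5-fold lower in IMQ than in Ctrl, against 10.7% of all genes in each direction, with a median of -0.08. COX19, a copper-handling factor of complex IV, rose from 8.88 in Ctrl to 9.47 in IMQ and was at 9.21 in IMQ+X. ACAD9, a complex I factor related to acyl-CoA dehydrogenases, fell from 13.29 to 12.68 and was at 12.79 in IMQ+X. FOXRED1, also of complex I, fell from 8.49 to 7.88 and was at 7.53. COX17, the copper chaperone of complex IV, was at 14.55, 15.11 and 15.15 and passed 1.5-fold in IMQ+X against Ctrl.

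The subunits encoded by mitochondrial DNA stood apart from their nuclear partners: of 11 with a probe, 7 fell by 1.5-fold or more after IMQ and 1 rose, against 10.7% of all genes in each direction. Their median difference was -0.78, and their median minus that of the nuclear subunits lay between -0.73 and -0.71 in all 11 settings tried. Over those settings, 6 to 8 were 1.5-fold lower in IMQ against Ctrl, and 6 to 10 in IMQ+X against Ctrl. In IMQ+X against Ctrl 7 of 11 were 1.5-fold lower with a median of -0.69, and in IMQ+X against IMQ the median was -0.03, with 1 gene, ND6, just past 1.5-fold and 0 genes with the 75th percentile, spike-in, normexp or no scaling. This list is not part of the naming rule and was chosen with earlier results of these data known.

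Subunits of complexes I, III, IV and V were among those that fell. ND3, of the membrane arm of complex I, had levels of 16.33 in Ctrl, 15.29 in IMQ and 15.22 in IMQ+X, and was 2.05-fold lower after IMQ. ND2, of the same arm, was at 14.13, 13.09 and 13.19, 2.06-fold lower. ATP6, the proton channel of the ATP synthase, was at 16.21, 15.22 and 15.20, 1.99-fold lower. In each of these the IMQ and IMQ+X samples lay within 0.11 of each other and about 1 log2 unit below Ctrl.

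COX2, which takes electrons from cytochrome c, was at 16.89, 16.02 and 16.03, and CYTB, the cytochrome b of complex III, at 16.72, 15.89 and 15.84. ND1, at the ubiquinone site of complex I, was at 13.68, 12.90 and 12.99. COX1, the catalytic subunit of complex IV, was at 16.85, 16.17 and 16.23, but the array's annotation places this probe on chromosome 1, in a nuclear copy of mitochondrial DNA, and the source of its signal was not tested. ND5 was 1.47-fold lower, at 12.87, 12.31 and 12.34. With quantile scaling the drop of 8 genes was thus at least 1.47-fold, and it was as large in IMQ+X as in IMQ to within 0.11. With the 75th percentile, COX1 and ND5 were each at -0.44 in IMQ against Ctrl.

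3 genes did not follow. ATP8, a small subunit of the ATP synthase, was at 14.42, 14.35 and 14.14, and ND4L, of complex I, at 16.35, 16.22 and 16.07, so that their differences after IMQ were -0.08 and -0.13. ATP8 is carried on the same messenger RNA as ATP6, whose own probe gave -0.99. ND6, the one protein gene read from the other strand, was at 7.58 in Ctrl, 8.68 in IMQ and 8.08 in IMQ+X. It was 2.14-fold higher in IMQ than in Ctrl, with an SD of repeated spots of 0.11, and higher in all 11 settings, by at least 0.55, although with spike-in scaling that was under 1.5-fold. In IMQ+X against IMQ it was 1.51-fold lower, and this was under 1.5-fold with the 75th percentile (-0.54), without scaling (-0.52), with spike-in scaling (-0.37) and with normexp (-0.51). ND6 and ND2 were thus on opposite sides of 0 although both belong to complex I.

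**Figure D4:**
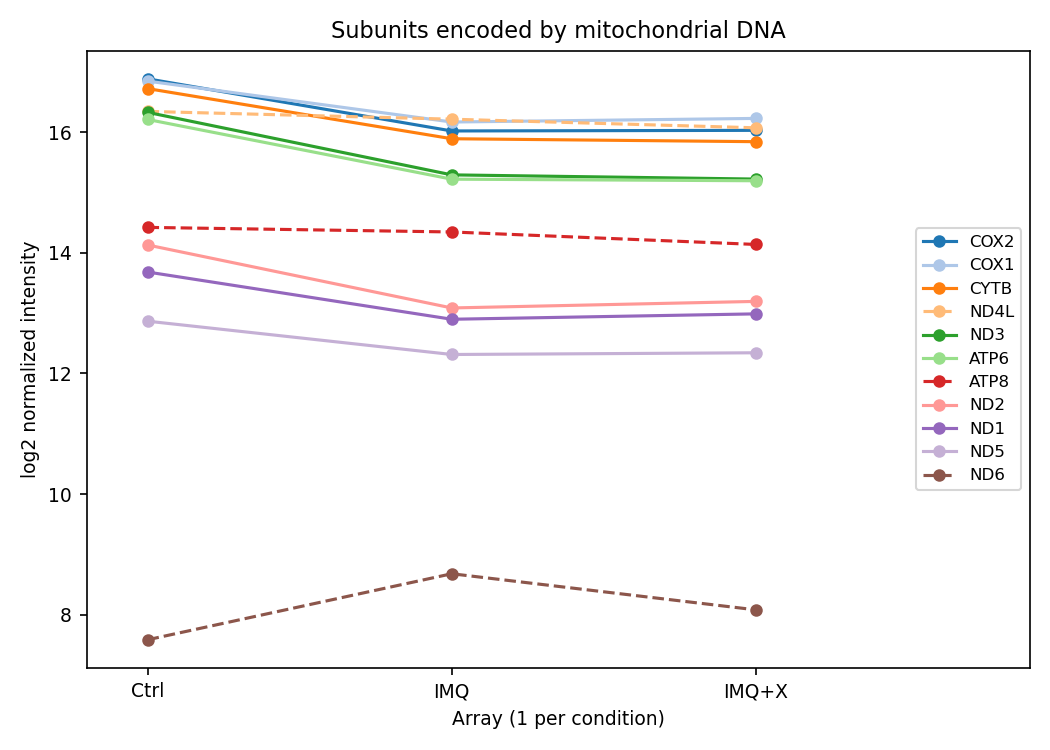
Log2 normalized intensity (vertical axis) of the 11 subunits encoded by mitochondrial DNA on the Ctrl, IMQ and IMQ+X arrays, 1 array per condition. Solid lines are the 8 genes that were at least 1.47-fold lower in IMQ than in Ctrl with quantile scaling. Dashed lines are ATP8, ND4L and ND6, the last of which was higher in IMQ (8.68) than in Ctrl (7.58).

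The probes of 4 of these genes are shown since the values of the pair on 1 messenger RNA differ, and since ND6 lies on the strand opposite to ND2. They are copied from the array files in the direction of the RNA, with mitochondrial positions on hg19 as the files give them, and no part is marked: ND2 at 4914 to 4973, ATP8 at 8449 to 8508 and ATP6 at 8836 to 8895, all on the plus strand, and ND6 at 14449 to 14508 on the minus strand.
ND2: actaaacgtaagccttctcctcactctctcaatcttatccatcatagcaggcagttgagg
ATP6: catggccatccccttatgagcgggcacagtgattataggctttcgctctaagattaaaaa
ATP8: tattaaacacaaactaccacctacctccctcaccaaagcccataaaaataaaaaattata
ND6: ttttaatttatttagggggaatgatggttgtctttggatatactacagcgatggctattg

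Of 11 electron carriers, metabolite carriers and regulators around the chain, 9 were lower in IMQ than in Ctrl, against 52.1% of all genes. Their median was -0.23, and 1 was past 1.5-fold, against 10.7% in each direction. These values hold for quantile scaling, and none are given for this list under other scalings. SLC25A5, an ADP/ATP carrier, had levels of 16.01, 15.67 and 15.63 in Ctrl, IMQ and IMQ+X. SLC25A3, the phosphate carrier, was at 16.50, 16.18 and 16.21. ATPIF1, which blocks the enzyme from running backwards, was at 15.22, 14.88 and 15.01. UCP2, a carrier of the uncoupling protein family, fell 3.23-fold, from 12.11 in Ctrl to 10.42 in IMQ, and was at 10.09 in IMQ+X, while CYCS, cytochrome c itself, was higher, at 13.17, 13.40 and 13.45.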

How the data were processed

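For each array the authors deposited the scanner output (Feature Extraction 10.5.1.1), whose background-corrected processed signal, an intensity, was the unit used, and a table of intensities before and after their quantile normalization. Here control spots and 52, 73 and 82 outlier-marked spots (Ctrl, IMQ, IMQ+X) were left out, and the intensity was quantile normalized in limma 3.58.1 (R 4.3.3), log2 transformed and averaged per probe. The median gap to the authors' own normalized intensity was 0.0013 log2 units. Of 58201 probes, 72.0%, 66.6% and 71.9% were well above background. A gene was read by its probe with the highest mean normalized intensity. Dimmer probes were raised to a floor, the lowest value of the probes well above background on that array, where they lay under it, and a gene was compared where its probe was well above background on the brighter array. A gene counted as changed at 1.5-fold, with 2-fold and a difference of 0.32 log2 units as alternatives. No column of the deposited tables held values of samples outside the series.

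Named genes are all subunits past 1.5-fold, those with the highest and lowest difference of each complex in IMQ against Ctrl and IMQ+X against IMQ, the core subunits, and pairs of isoforms (1 gene that this rule names is not reported here); others were chosen after their values were seen. The members and gene lists were chosen with earlier results of these data known. Alternatives were 75th percentile, spike-in and no scaling, normexp (offset 50), the authors' values, outlier spots kept, other choices of probe, and other filters. Later steps used Python 3.11.15, numpy 2.4.6 and pandas 2.3.3, and the code was tested on simulated data. With 1 array per condition, the number of arrays limits the precision.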

Additional observations from a re-analysis of the deposited data

How the results depend on the processing

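The median of the subunits moved with the scaling between arrays. In IMQ against Ctrl it was 0.10 with the 75th percentile, the opposite sign of the -0.07 given above, -0.35 without scaling and -0.44 with spike-in scaling, between IMQ+X and IMQ it was -0.13 with the 75th percentile and -0.11 without scaling, and between IMQ+X and Ctrl it was -0.46 without scaling and -0.40 with spike-in scaling. Complex I in IMQ against Ctrl was at 0.087 with the 75th percentile. Complex V minus the median of all genes in that comparison was 0.047, 0.042 and 0.043 with the 75th percentile, no scaling and spike-in scaling. Complex V minus the other complexes in IMQ+X against Ctrl was -0.19 with normexp at an offset of 50.

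Counts of subunits past the fold moved too. In IMQ against Ctrl, 0 were higher with the 75th percentile, without scaling, with spike-in scaling, with normexp, with probes well above background on all arrays only, at 2-fold, or without COX8C (chosen after seeing the data); 2 were higher at 0.32 log2 units or with all 97 genes of the naming rule. Lower were 11 without scaling, 20 with spike-in scaling, 1 with no filter and no floor, and 5 at 0.32 log2 units. Between IMQ+X and IMQ, 1 was higher with the 75th percentile, without scaling, with spike-in scaling and at 0.32 log2 units, and 1 with no filter and no floor and 2 at 0.32 log2 units were lower. Between IMQ+X and Ctrl, 1 was higher with all 97 genes and 2 at 0.32 log2 units; lower were 22 without scaling, 15 with spike-in scaling, 1 with no filter and no floor, and 7 at 0.32 log2 units. No share of all genes is given for the counts under other scalings, so that they do not set the subunits apart. The cause was not tested.

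No paired analysis was possible because each condition had 1 array. The authors' own normalized values, outlier-marked spots, the choice of probe and the place of NDUFA4 moved no median of the subunits by more than 0.061. Probes below a log2 level of about 6 carry spot noise of 0.21 or more, which limits COX8C, COX4I2 and NDUFA4L2.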

Other observations

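Regulators of mitochondrial biogenesis had a median difference of 0.00 between IMQ and Ctrl over 12 genes compared, with 1 gene past 1.5-fold in each direction, against 10.7% and 10.7% of all genes. GABPB1, a subunit of the factor GABP, rose from 9.12 in Ctrl to 10.03 in IMQ and was at 9.87 in IMQ+X. MYC, a growth regulator, fell from 11.89 to 11.18 and was at 10.98. TFAM, which packs and transcribes mitochondrial DNA, differed from Ctrl by 0.10 in IMQ and 0.07 in IMQ+X, and POLRMT, the mitochondrial RNA polymerase, was at 12.21, 11.96 and 11.91.

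Of 77 mitochondrial ribosomal proteins, which build the ribosome that translates the mitochondrial messages, 55 were lower in IMQ than in Ctrl, against 52.1% of all genes, with a median of -0.10. The counts past 1.5-fold were 0 higher and 3 lower, against 10.7% in each direction, namely MRPL17 (12.28, 11.29 and 11.23 in Ctrl, IMQ and IMQ+X), MRPS26 (11.65, 11.04 and 11.12) and MRPL1 (7.64, 7.04 and 6.80). Of 17 genes of the tricarboxylic acid cycle and pyruvate dehydrogenase, 12 were lower, with a median of -0.06, and 0 passed 1.5-fold, against the same shares. Between IMQ+X and Ctrl the medians were -0.10 for the ribosomal proteins and -0.07 for the cycle. The medians and counts of these lists hold for quantile scaling, and none are given under other scalings. Whether the lower counts would remain was not tested.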
